A study of Mus musculus with 8 samples.

Results

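PGC-1α was compared with GFP in iron-chelated muscle cells. Both sides of the comparison were myotubes of C2C12, an established mouse myoblast line that fuses into multinucleated muscle fibres when serum is lowered. After 3 days of differentiation in 2% dialysed serum the cultures received adenovirus encoding either GFP alone or PGC-1α tagged with GFP, together with 100 µM of the iron chelator deferoxamine (DFO), and RNA was taken 3 days later. The comparison uses the 4 arrays that carried DFO, of 8 in the series: 2 of PGC-1α with DFO and 2 of GFP with DFO. The other 4 arrays, 2 each of GFP and PGC-1α without DFO, serve as a reference and enter the pooled spread of the tests. Chosen by their labels alone, the arrays of a group are biological duplicates per the design text. Because DFO was on both sides, the comparison shows the effect of the construct in chelated cells and not that of DFO. Forced viral expression of a tagged coactivator in 1 cell line limits the groups as a model of muscle.

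PGC-1α, encoded by Ppargc1a, is a transcriptional coactivator that docks on nuclear receptors such as ERRα and on the factors NRF1 and GABP, and it is known in muscle for switching on mitochondrial genes. Much of the machinery it controls needs iron: the respiratory chain carries iron-sulfur clusters and haem, which are themselves assembled in mitochondria. Chelation also stops the iron-dependent prolyl hydroxylases that mark hypoxia-inducible factors (HIFs) for destruction, so chelated cells show a hypoxia-like programme.

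Values are deposited intensities on a linear scale, tested as log2. Differences are log2 changes, PGC-1α with DFO minus GFP with DFO, ± the SE from limma, with Benjamini-Hochberg adjusted p-values over 18193 genes. A gene that passed adjusted p 0.05 is said to have risen or fallen. With 2 arrays a side, an exact permutation test cannot go below p = 0.333, so the calls rest on limma's spread pooled over all 8 arrays. Array medians lay between 59.5 and 62.8, and the duplicates correlated at 0.948 for PGC-1α with DFO and 0.962 for GFP with DFO. The poly-A spike-ins, bacterial transcripts added to the RNA before labelling, read lower on the PGC-1α arrays with DFO (mean log2 of 27 probe sets 7.60 and 7.47) than on the GFP arrays with DFO (8.16 and 7.91); the spike-in scale sets these means equal on all 8 arrays. The 5′ to 3′ ratio of the actin control was 0.753 and 0.811 against 0.868 and 0.859. Their part in the results was not tested, and results are given on the deposited scale, with the spike-in scale wherever it turns a called gene or a printed list median; since it adds 0.50 to every log2 change under DFO, negative values nearer 0 than that, called or not, read positive on it.

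The targeted gene was measured first. Of the 5 Ppargc1a probe sets 1 rose, the brightest. Its intensity was 26.6 and 88.1 on the GFP arrays and 7930.3 and 7710.4 on the PGC-1α arrays, a log2 change of 7.33 ± 0.55 (adjusted p = 0.00174). The other 4 did not follow it. A second probe set read 33.0 and 41.0 with GFP against 11.1 and 13.0 with PGC-1α, a change of -1.62 ± 0.18 (limma over all probe sets, adjusted p = 0.00747). Another fell from 20.7 and 24.6 to 6.51 and 10.5, at -1.45 ± 0.24 (adjusted p = 0.022). All these readings lie below the array medians, close to background, so the size of both falls is uncertain. The remaining pair, at -0.28 and -0.34, did not pass. The sources used here do not say which probe sets the viral insert covers.

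In all, 3446 genes passed: 1260 rose (6.93% of those tested) and 2186 fell (12%). The counts of each gene list below are to be read against these shares. The 2 groups did not overlap in 10886 genes (59.8%), among them all 3446 called, so where groups are said below to be apart that holds for every called gene and adds no support to the call. Changes of at least 2-fold were more even, with 493 rises and 567 falls. Leaving out 1 array moved the total most for GFP with DFO, to 873 without replicate 1 and 1070 without replicate 2, and to 2135 without PGC-1α replicate 2; replicates left out are DFO arrays unless said otherwise. Scaling to the poly-A spike-ins raised the median of all genes from -0.05 to 0.45, a shift of 0.50, and the calls became 3044 rises (16.7%) and 366 falls (2.01%), or 89.3% rises against 36.6% as deposited. All 1260 rises were also called on that scale. Of the 2186 falls 1780 stayed negative and 366 were called, none was called higher, and all 567 falls of at least 2-fold stayed negative.

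Among coactivators, partner factors and regulators of PGC-1, 3 of 33 rose (9.09%, against 6.93% of all genes) and 8 fell (24.2%, against 12%). Esrra, which encodes ERRα, rose from 179.7 and 184 to 1197 and 1191 (2.72 ± 0.10, adjusted p = 0.000524), and the mitochondrial deacetylase gene Sirt3 rose by 1.74 ± 0.13. The closest relative of PGC-1α, Ppargc1b, fell from 105 and 56.0 to 11.3 and 11.6 (-2.75 ± 0.33, adjusted p = 0.00607). Its readings with PGC-1α lie far below the medians of those arrays (62.35 and 61.5), close to background, so the size of the fall is uncertain. In each of these genes the 2 PGC-1α arrays lay wholly on one side of the 2 GFP arrays. Genes for the other docking partners did not pass: Nrf1 changed by -0.18, Gabpa by 0.17 and Ppara by 0.43. Mef2c, a muscle transcription factor that PGC-1α coactivates, fell by 1.60. Without GFP replicates 1 and 2 in turn 2 and 4 falls passed, and 5 without PGC-1α replicate 2. The list's median was -0.18, against -0.05 over all genes; it turned to 0.32 on the spike-in scale.

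Predicted transcripts were passed over in ranking the changes. The largest rise among the other genes above the median level, after that of Ppargc1a, was in Nppb, the precursor of brain natriuretic peptide. It went from 75.4 and 86.8 to 3282 and 3272 (5.34 ± 0.15, adjusted p = 0.000292). The chemokine gene Cxcl1 went from 298 and 311 to 7552 and 7757 (4.65 ± 0.08, adjusted p = 0.000196). Fdx1, a mitochondrial ferredoxin that carries electrons on an iron-sulfur cluster, went from 284 and 273 to 5627 and 5428 (4.31 ± 0.09, adjusted p = 0.000196). In all 3 the duplicates sat close together and far from the other side. Nefm, the medium neurofilament subunit of neurons, rose by 4.37 ± 0.12. The mitochondrial fission gene Mtfp1 rose by 3.79 ± 0.11, the cristae protein gene Chchd10 by 3.61 ± 0.10, Upp1, which splits uridine, by 3.49 ± 0.08, Mcrip2 by 3.82 ± 0.10, and Cox7a1, the muscle isoform of a cytochrome oxidase subunit, by 3.33 ± 0.09.

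The largest fall among genes above the median level, predicted transcripts again passed over, was in Pdlim3, a Z-disc adaptor, from 832 and 772 to 48.2 and 49.3 (-4.04 ± 0.08, adjusted p = 0.000196). Ldb3, which encodes another Z-disc protein, went from 239 and 186 to 23.4 and 9.84 (-3.80 ± 0.41), and Trdn, the triadin of the calcium release complex, from 408 and 380.3 to 63.6 and 59.7 (-2.68 ± 0.09). No PGC-1α array reached the lower GFP array in any of them. Unc45b, a chaperone that folds myosin, fell by 2.95, and Trim63, the ubiquitin ligase MuRF1 of muscle atrophy, by 2.92. Outside the sarcomere, the growth factor gene Tgfb3 fell by 3.07, Tmem182 by 3.06, the angiomotin gene Amot by 2.80, the guidance cue Sema3d by 2.61 and Ogn, a small matrix proteoglycan, by 2.61. These 10 genes, the largest falls, kept their call when any single array was left out and on the spike-in scale. Each of these calls is that of 1 probe set. The other Amot probe sets read -0.07 and -0.28 and did not pass. For Ldb3 the others read -1.53, which passed, and -0.35, which did not, and the dimmest Trdn probe set read 0.33 and did not pass. In bulk RNA, fewer cells of a type and less RNA per cell cannot be told apart, which bears on these 10 genes and on the muscle lists.

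**Figure D1:**
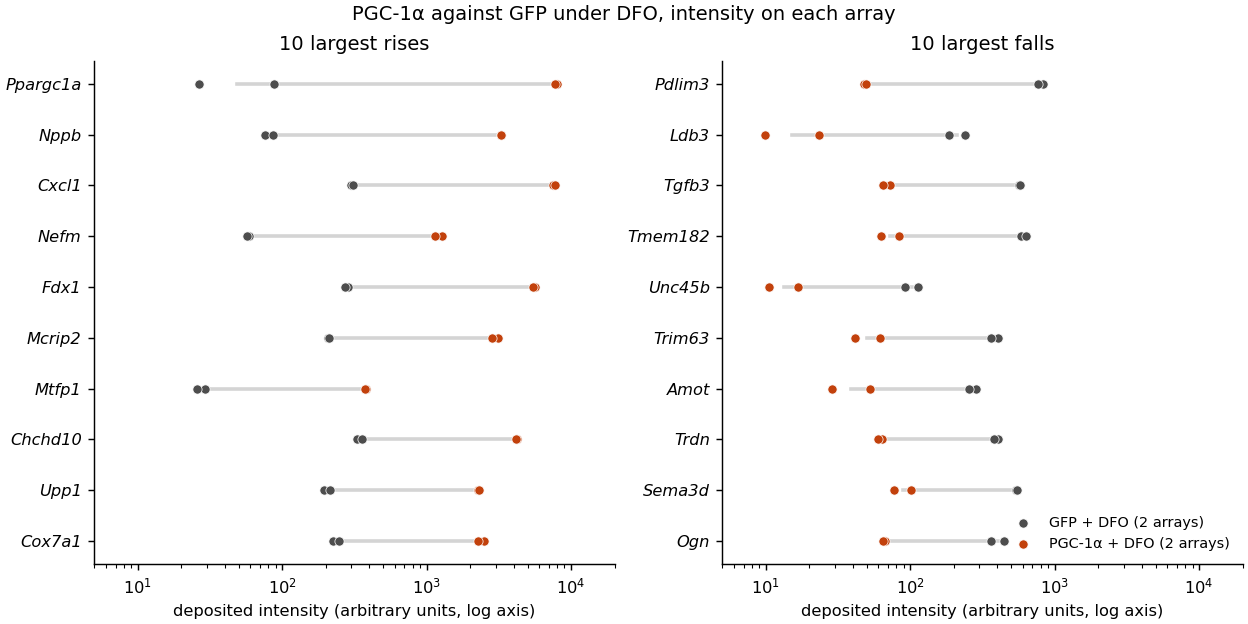
Deposited intensity on each DFO array (log axis) for the 10 largest rises (left) and the 10 largest falls (right) among genes above the median level, predicted transcripts passed over. Grey points are the 2 GFP arrays, orange points the 2 PGC-1α arrays, and the line joins the group means on the log scale. In every gene drawn the 2 groups are apart, with Ppargc1a moving from 26.6 and 88.1 to 7930.3 and 7710.4 and Pdlim3 from 832 and 772 to 48.2 and 49.3.

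Most genes of mitochondrial energy supply rose. Of the TCA cycle and pyruvate dehydrogenase genes 16 of 19 rose and 0 fell, with a median of 1.38. Idh3a, the catalytic subunit of NAD-dependent isocitrate dehydrogenase, went from 829 and 755 to 4670.1 and 4689 (2.56 ± 0.09, adjusted p = 0.000524). Cs, citrate synthase, went from 1971 and 1941 to 7135 and 6814 (1.83 ± 0.08), and Mpc1, which carries pyruvate into mitochondria, from 1024 and 1039 to 4037 and 4137 (1.99 ± 0.08). The PGC-1α arrays were above the GFP arrays in each. Dlat and Ogdh, components of the pyruvate and oxoglutarate dehydrogenase complexes, rose by 1.99 and 1.96. The members that did not pass were Pdhx (0.04), Pcx, the anaplerotic pyruvate carboxylase (0.04), and Suclg2 (-0.03).

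In the respiratory chain 29 of 34 complex I subunit genes rose (median 0.99), as did all 14 of complexes II and III and cytochrome c (median 1.12), 12 of 15 of complex IV (median 0.68), and 12 of 17 of ATP synthase (median 0.61). None of these lists had a fall. Ndufb10 of complex I went from 1015 and 1006 to 3894 and 3539 (1.88 ± 0.10), and Ndufs1, the largest iron-sulfur subunit, from 821 and 784 to 2183 and 2135 (1.43 ± 0.08). Sdhb, the iron-sulfur subunit of succinate dehydrogenase, went from 2055 and 2181 to 5524 and 5347 (1.36 ± 0.09). The groups did not overlap in any of the 3. Cyc1 and Cycs, both haem-carrying cytochromes, rose by 1.57 and 1.29, and Atp5g1, a gene for the ring subunit of ATP synthase, by 1.94. Within complex IV the muscle isoform genes Cox7a1 (3.33) and Cox6a2 (1.08) had larger changes than their widely expressed counterparts Cox7a2 (0.38) and Cox6a1 (0.70), a contrast within pairs that was not tested. Cox7a2 lost its call without any array but PGC-1α replicate 2 with DFO (adjusted p up to 0.198). The other muscle isoform gene, Cox8b, read 0.16 and did not pass. Without GFP replicates 1 and 2 in turn 23 and 25 complex I genes passed, against 5 and 6 of complex IV and 5 and 5 of ATP synthase.

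Fatty acid oxidation genes rose in 15 of 22 cases, with 0 falls and a median of 0.92. Hadha, the trifunctional protein subunit that handles long chains, went from 672 and 703 to 2413 and 2271 (1.77 ± 0.10). Acadvl, the very long chain dehydrogenase, went from 735 and 757 to 2266 and 2042 (1.53 ± 0.10), and Etfdh, which passes electrons from these dehydrogenases to coenzyme Q, from 985 and 957 to 3168 and 3205 (1.71 ± 0.08). All 3 showed no overlap between groups. Entry steps rose as well, with the carnitine palmitoyltransferase Cpt1a at 1.26 and the carnitine carrier Slc25a20 at 1.50, whereas Cpt2 (-0.14), Hadh (-0.26) and Acadl (0.09) did not pass.

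**Figure D2:**
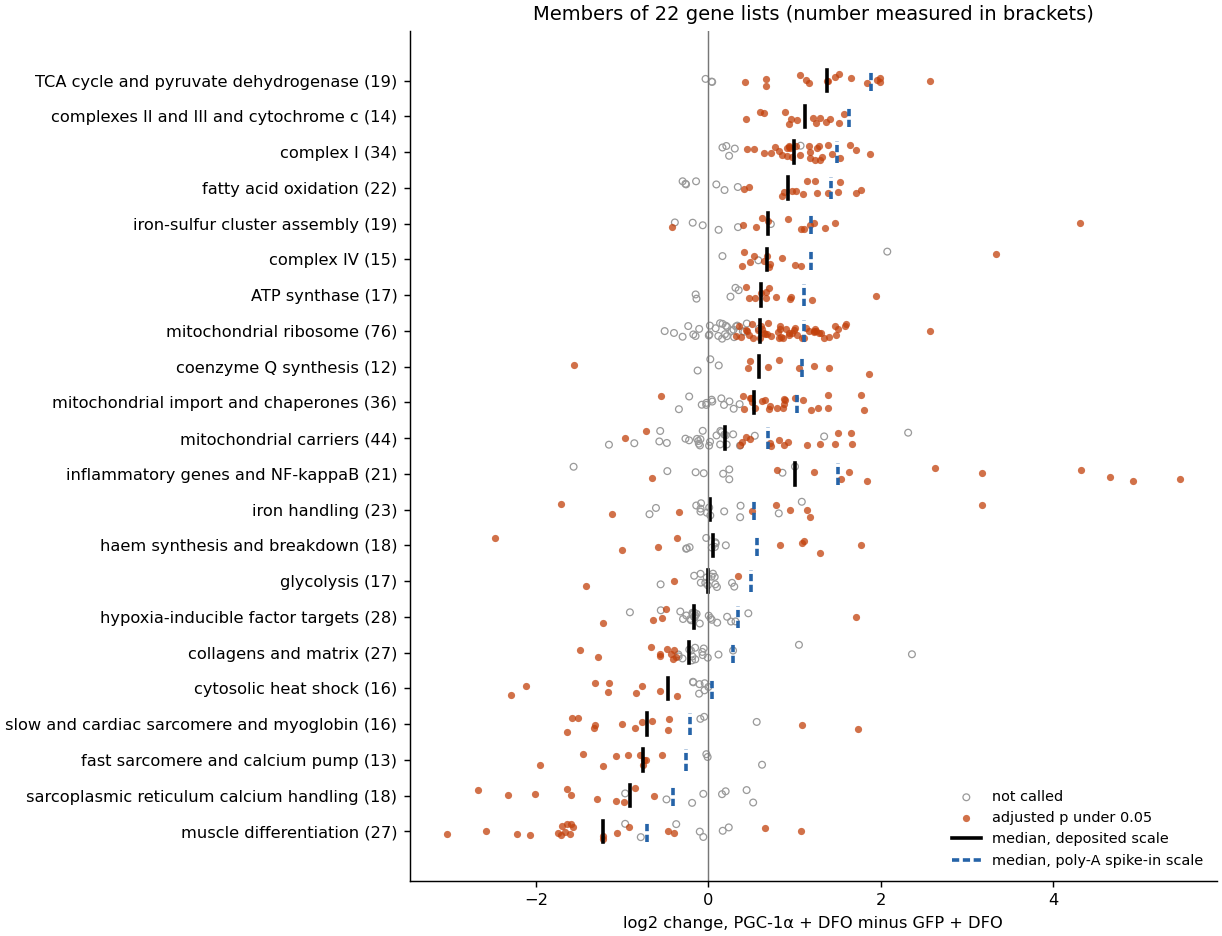
Log2 change of each member of 22 gene lists (rows; the number measured in brackets), PGC-1α with DFO minus GFP with DFO. Filled points passed adjusted p 0.05, open points did not; the black bar is the list's median on the deposited scale and the dashed blue bar its median on the poly-A spike-in scale. Energy lists lie to the right of 0 on both scales and the 4 muscle lists to the left, while the medians of glycolysis, HIF targets, collagens and heat shock turn from negative to positive; as deposited, the medians range from 1.38 for the TCA cycle to -1.22 for muscle differentiation.

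The promoters of the rising energy genes were searched for short sites of the factors that PGC-1α docks on, because the members moved together. RefSeq windows (GRCm38.p6, 250 bases before to 50 after a start) were found for 82 of the 98 energy genes that rose and for 14368 of all genes tested. The NRF1 core GCGCATGC, on either strand, was in 12 of the 82 windows (14.6%) against 4.7% of all tested genes with a window. The 7-letter ERR core AAGGTCA was in 8 (9.76% against 4.61%) and its extended form TCAAGGTCA, which contains it, in 2 (2.44% against 0.404%), while the ETS site CCGGAAG, bound by GABP, was in 19 (23.2% against 15%). Of all 1048 genes with a window that rose under DFO, 6.3% held the NRF1 core, 6.39% the ERR core, 0.477% its extended form and 23.5% the ETS site. The ETS share was thus no higher in the energy genes that rose. Among the 21 energy genes with a window that were not called, the NRF1 core was in 2 (9.52%), the ERR core and the ETS site in 3 each (14.3%) and the extended ERR form in 0. Upstream runs of 120 bases are printed because their genes rose and carry the NRF1 core, in capitals: Sdhb (chr4:140961151-140961270, plus strand), Cycs (chr6:50566570-50566689, minus strand) and Esrra (chr19:6921809-6921928, minus strand). The fourth line gives 30 bases (chr9:50603795-50603824, plus strand) around the extended ERR site, also in capitals, which lies 96 bases before the Timm8b start and 37 bases past the start of the oppositely transcribed Sdhd; the 2 starts lie 52 bases apart.
Sdhb: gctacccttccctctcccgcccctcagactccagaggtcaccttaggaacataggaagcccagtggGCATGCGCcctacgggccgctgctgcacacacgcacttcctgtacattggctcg
Cycs: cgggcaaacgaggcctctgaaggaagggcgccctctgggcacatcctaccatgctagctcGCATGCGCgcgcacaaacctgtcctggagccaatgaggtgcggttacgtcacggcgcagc
Esrra: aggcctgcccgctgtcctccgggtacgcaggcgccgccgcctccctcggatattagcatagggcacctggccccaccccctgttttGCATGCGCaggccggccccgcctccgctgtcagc
Timm8b: tttcgagggcTCAAGGTCActctacaaccc

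Timm8b, an import chaperone, went from 972 and 1094 to 2224 and 2172 (1.09 ± 0.10), and Sdhd, a membrane anchor of succinate dehydrogenase, from 1691 and 1737 to 3967 and 4207 (1.25 ± 0.08). Both genes rose. A match of letters is a description of the window and not evidence of binding. Idh3a has no window in the table.

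Most genes for building mitochondria rose as well. Of 76 mitochondrial ribosomal protein genes 48 rose and 0 fell (median 0.60); Mrpl47 went from 369 and 332 to 2165 and 1988 (2.57 ± 0.13, adjusted p = 0.000842). For mitochondrial DNA and its expression 15 of 28 rose, among them the elongation factor genes Gfm1 (2.10 ± 0.08) and Tufm (1.38 ± 0.10) and Tfam, the packaging and transcription factor, at 0.67 ± 0.08 (adjusted p = 0.00606). Tfam lost its call without either GFP array (adjusted p = 0.0555 and 0.0571). Import and chaperone genes rose in 23 of 36 cases, led by Timm10 and Timm9, which escort carrier proteins between the membranes (1.80 and 1.77). Of 44 carriers 15 rose and 2 fell; the aspartate-glutamate carrier Slc25a12 rose by 1.67 and the adenine nucleotide exchanger Slc25a5 by 1.65. Fusion genes Mfn1 (1.94) and Mfn2 (1.19) rose alongside the fission gene Mtfp1, in a list where 8 of 18 rose and 1 fell. Without GFP replicates 1 and 2 in turn the rises were 27 and 24 for the ribosome, 4 and 4 for mitochondrial DNA (7 to 9 without any other array), 11 and 13 for import, 8 and 7 for carriers (9 without PGC-1α replicate 2 with DFO) and 4 and 6 for dynamics.

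Coenzyme Q carries electrons to complex III, and its synthesis genes split. Of 12 genes 8 rose, led by the ring methyltransferase Coq5, from 258 and 253 to 994 and 875 (1.87 ± 0.10). Coq8a, the kinase-like regulator of the pathway, fell instead, from 1166 and 1220.4 to 431 and 378 (-1.56 ± 0.10, adjusted p = 0.00126). Without DFO it read 3426 and 3273 with GFP and 4277 and 4322 with PGC-1α, a change of 0.36 that was not called. Both PGC-1α arrays were thus lowest of all 8 under DFO and highest without it, and the difference between the 2 changes passed (interaction -1.92 ± 0.14, adjusted p = 0.0251). Without GFP replicates 1 and 2 in turn the list had 5 and 4 rises.

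Iron-handling genes were followed because iron was withheld on both sides. Of 19 genes of iron-sulfur cluster assembly 12 rose and 1 fell (median 0.69). Apart from Fdx1, the scaffold gene Iscu went from 1438 and 1432 to 3383 and 3314 (1.22 ± 0.08), and Glrx5, the glutaredoxin that relays clusters, from 1852 and 1857 to 4013 and 3774 (1.07 ± 0.08). Nfs1, the desulfurase that supplies sulfur, changed by 0.12 and did not pass. Of 19 genes for iron-sulfur and haem proteins, most of them respiratory subunits, 15 rose and 3 fell (median 1.22). The falls were Suox, sulfite oxidase (-1.53), Cat, the haem enzyme catalase of peroxisomes (-1.08), and Fech.

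Along the haem pathway the first and last enzymes went opposite ways. Alas1, the rate-limiting first step, went from 355 and 379 to 1221 and 1275 (1.76 ± 0.09, adjusted p = 0.000932). Fech, ferrochelatase, which inserts iron in the last step, went from 938 and 888 to 682 and 734 (-0.37 ± 0.09, adjusted p = 0.0411). The fall of Fech on this probe set was lost without any 1 of the 8 arrays and turned to 0.14 on the spike-in scale. The other Fech probe sets read -0.88 and -0.81, which passed (limma over all probe sets, adjusted p = 0.00846 and 0.0226), and -0.42, which did not. Of 18 haem genes 5 rose and 4 fell, with no fall left without GFP replicate 1 or 2 (counts of 0 and 0). Hmox1, the inducible haem oxygenase, read 0.04 and did not pass.

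Of 23 genes for iron uptake, storage, export and sensing 6 rose (26.1%, against 6.93% of all genes) and 3 fell (13%, against 12%). Tfrc, the transferrin receptor, went from 4557 and 4646 to 8151 and 7695 (0.78 ± 0.09, adjusted p = 0.00566), losing its call without GFP replicate 1 (adjusted p = 0.0561). Slc11a2, the DMT1 iron importer, went from 297 and 305 to 682 and 683 (1.18 ± 0.08), and Slc25a28, a mitochondrial iron importer, rose by 1.15. These uptake genes lay higher on both PGC-1α arrays. Slc40a1, the iron exporter ferroportin, went from 151 and 169.8 to 77.8 and 70.2 (-1.11 ± 0.11, adjusted p = 0.0034), and Hjv, the hemojuvelin of muscle, fell by 1.71. Fth1, the ferritin heavy chain, read 9181 and 9605 with GFP and 8558 and 9154 with PGC-1α (-0.09 ± 0.09, adjusted p = 0.573), and did not pass. Lcn2, a siderophore-binding protein of acute inflammation, was the largest rise of the list and is described with the inflammatory genes.

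Of 28 HIF targets 1 rose (3.57%, against 6.93% of all genes) and 4 fell (14.3%, against 12%), with a median of -0.17 that turned to 0.34 on the spike-in scale. Vegfa read 2431 and 2264 with GFP and 2763 and 2691 with PGC-1α (0.22 ± 0.09, adjusted p = 0.169), and Ldha, lactate dehydrogenase A, read 9691 and 10589 and 9639 and 9421 (-0.09 ± 0.08, adjusted p = 0.547). Neither passed, although Vegfa did rise without DFO, from 932 and 1019 to 1615 and 1619; the difference between the 2 changes was -0.51 ± 0.13 (adjusted p = 0.148). Egln3, an oxygen and iron sensing prolyl hydroxylase that HIFs induce, fell from 3504 and 3292 to 1489 and 1432 (-1.22 ± 0.09, adjusted p = 0.00156). Kdm3a, a histone demethylase induced by HIFs, fell by 0.64 and, like the falls of Ddit4 and Mxi1, lost its call without either GFP array (adjusted p up to 0.0706, 0.104 and 0.0931). On the spike-in scale Mxi1 turned to 0.01 and Kdm3a read -0.14. Pfkfb4, which raises the glycolytic activator fructose bisphosphate, was the target that rose, from 233 and 226 to 787 and 716 (1.71 ± 0.09).

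Among the 12 HIFs and their regulators 1 rose (8.33%, against 6.93% of all genes) and 2 fell (16.7%, against 12%). Cited2, which competes with HIFs for their coactivator, went from 3926 and 3939 to 2047 and 2123 (-0.92 ± 0.07, adjusted p = 0.00217), and Egln3 was the other fall. Epas1, which encodes HIF-2α, went from 39.4 and 56.1 to 124 and 88.8 (1.16 ± 0.25, adjusted p = 0.0319), close to background, and lost its call without 7 of the 8 arrays (adjusted p up to 0.146).

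Of 17 glycolysis genes 1 rose (5.88%, against 6.93% of all genes) and 2 fell (11.8%, against 12%), with a median of -0.01 that turned positive on every other scale tried. Pfkm, the muscle phosphofructokinase, rose by 0.35, and the muscle isoforms Pgam2 and Eno3 fell by 1.42 and 0.40; all 3 lost their calls without GFP replicate 1 (adjusted p = 0.166, 0.0679 and 0.179), Pfkm without any 1 of the 8 arrays, and Eno3 turned to 0.10 on the spike-in scale. At the pyruvate branch point the changes were larger. Ldhb, the lactate dehydrogenase subunit that favours pyruvate, went from 261 and 306 to 2759 and 2635 (3.25 ± 0.12, adjusted p = 0.000524), and Pdk4, a kinase that shuts pyruvate dehydrogenase, from 658 and 626 to 2503 and 2329 (1.91 ± 0.10). Its relative Pdk2 went the other way, from 669 and 758 to 309 and 311 (-1.20 ± 0.15, adjusted p = 0.00739), losing its call without GFP replicate 2 (adjusted p = 0.0579). Among 14 angiogenic factors 3 rose (21.4%, against 6.93% of all genes), Vegfc (1.19), Pgf (1.14) and Angptl4 (0.80). Angpt1, at -1.53, was the 1 fall (7.14%, against 12%). Vegfc and Pgf lost their calls without any 1 of the 4 DFO arrays.

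Muscle genes fell. Of 27 genes of muscle differentiation 18 fell and 2 rose (median -1.22), and 15 of the falls passed on the spike-in scale too (median -0.72). The regulators were already far down in the chelated cells: Myog, myogenin, read 5223 and 5330.2 with GFP alone and 174 and 141 with GFP and DFO. With PGC-1α and DFO it read 63.1 and 71.1 (-1.22 ± 0.13, adjusted p = 0.00438). Myod1 fell by 1.75 and Mef2c by 1.60. Of the acetylcholine receptor genes of the neuromuscular junction, Chrng, the embryonic γ subunit, went from 710.5 and 707 to 125 and 112 (-2.58 ± 0.09, adjusted p = 0.000524), and Chrna1 and Chrnb1 fell by 1.06 and 1.70. Ckm, muscle creatine kinase, went from 531 and 541 to 224 and 237 (-1.22 ± 0.09). Actn2, a Z-disc actinin, rose, from 92.0 and 75.7 to 173 and 178 (1.07 ± 0.12).

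Sarcomere genes of fast and of slow fibres fell. Of 13 fast genes 10 fell (median -0.76) and of 16 slow and cardiac genes 11 fell and 2 rose (median -0.71); on the spike-in scale the falls were 3 and 4, with both medians still negative, and without GFP replicates 1 and 2 in turn they were 6 and 6 fast and 6 and 6 slow. Tnni2, fast troponin I, went from 2228 and 2076 to 837 and 738 (-1.45 ± 0.10), and Tnnc2, fast troponin C, from 3226 and 2989.5 to 1398 and 1260.5 (-1.23 ± 0.09). Actc1, cardiac actin, went from 3149 and 2925 to 1083 and 947 (-1.58 ± 0.10). The groups were apart in all 3. Myh3, embryonic myosin, fell from 1528 and 1372 to 352 and 236 (-2.33 ± 0.20), and the fast myosin Myh4 fell by 0.79, a call lost without GFP replicate 1 or PGC-1α replicate 2 (adjusted p = 0.083 and 0.0603). Myl2, the slow regulatory light chain, rose instead, from 53.3 and 57.9 to 173 and 196 (1.73 ± 0.10), and so did the slow tropomyosin gene Tpm3 (1.08).

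Calcium handling followed the sarcomere, with 10 of 18 genes falling and 0 rising (median -0.91, and -0.41 on the spike-in scale). Besides Trdn, the junctophilin gene Jph1, which tethers reticulum to the surface membrane, went from 530.0 and 481 to 111 and 91.6 (-2.32 ± 0.16). A second Jph1 probe set, nearly as bright (mean log2 8.48 against 8.92), read -0.23 and did not pass. Cacng1, the γ subunit of the muscle calcium channel, went from 648 and 630.3 to 155 and 162 (-2.01 ± 0.09). Casq2, a calcium store, fell by 1.64 and the pump gene Atp2a1 by 1.07. Casq1 (-0.06) and Ryr1, the release channel (-0.96), did not pass.

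The labelled myotube identity was checked on 14 markers. Their summed intensity was 22120 to 22280 on the GFP arrays with DFO and 11760 to 12820 on the PGC-1α arrays with DFO, against 64640 to 68010 with GFP alone, so markers were present but lower in chelated cells. With DFO, 11 of the 14 fell and Actn2 rose. Of 12 markers of undifferentiated myoblasts or reserve cells 4 rose (Id1, Id3, Hes1 and Sdc4) and 3 fell (Cd34, Notch1 and Spry1); their sum was 3835 to 4382 with GFP and 5249 to 5818 with PGC-1α, while Pax7, the defining reserve-cell factor, read 29.4 and 28.9 with GFP and 36.7 and 37.0 with PGC-1α and did not pass. Fibroblast markers summed to 20090 to 20510 with GFP and 15740 to 16620 with PGC-1α, with 0 rises and 3 falls of 8 (Col1a1, Col1a2 and Col3a1). On the spike-in scale none of these 3 falls passed, Col3a1 read 0.10, and the log2 change of the fibroblast sum turned from -0.33 to 0.18. On that scale 5 of the 12 myoblast or reserve-cell markers rose and 0 fell, while 7 of the 14 myotube markers fell and 1 rose. The part of these shifts in the muscle results was not tested.

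Inflammatory genes rose with PGC-1α in the chelated cells. Of 21 genes of inflammation and NF-kappaB, the stress-activated transcription factor, 11 rose and 1 fell, with a median of 1.00 on the deposited scale and 1.51 on the spike-in scale. Cxcl5, a neutrophil chemokine related to Cxcl1, went from 42.2 and 20.9 to 854 and 946 (4.92 ± 0.35, adjusted p = 0.00165). Saa3, an acute phase protein gene, went from 6.93 and 11.5 to 421 and 370.0 (5.47 ± 0.57), and Il6, the cytokine, from 26.5 and 32.1 to 547 and 616 (4.32 ± 0.51, adjusted p = 0.00594). The GFP readings of these 3 genes were dim. Their SEs, taken from the spread over all 8 arrays, were wide. Il6 lost its call without GFP replicate 1. Lcn2 went from 279.7 and 264 to 2455 and 2441 (3.17 ± 0.08, adjusted p = 0.000292), and Ptgs2, cyclooxygenase 2, from 1982 and 1894 to 6021 and 5221 (1.53 ± 0.11). The feedback inhibitor Nfkbia rose by 1.83 and the monocyte chemokine Ccl2 by 1.63. The fall was Cxcl12, a stem cell chemokine (-0.65), whose call was lost without 7 of the 8 arrays (adjusted p up to 0.159) and whose mean over probe sets reads 0.21. Tnf (-1.56), Il1b (-0.05) and Rela (-0.48) did not pass.

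Without DFO 2 of the 21 genes rose, Lcn2 and Nfkbia (9.52%, against 4.96% of all genes), and 0 fell. Cxcl1 read 242 and 238 with GFP and 290.4 and 275 with PGC-1α, and Ptgs2 read 281 and 311 and 292 and 283. The list's median was -0.04 there. The difference between the 2 changes passed for 6 of the 21 genes, against 0.231% of all genes: Cxcl1 (4.42 ± 0.11, adjusted p = 0.00186), Cxcl5 (4.97 ± 0.50, adjusted p = 0.0443), Ptgs2 (1.57 ± 0.15, adjusted p = 0.0406), Lcn2 (1.54 ± 0.11, adjusted p = 0.0251), and, at the threshold, Saa3 (6.95 ± 0.81) and Ccl2 (1.27 ± 0.15, both adjusted p = 0.04998). It did not pass for Il6 (4.77 ± 0.73, adjusted p = 0.0688). On the spike-in scale the difference passed for 1 of the 21 genes, Cxcl1. Over all genes the count of 101 became 4 on that scale and 3 with the replicate number as a block. Of 6 macrophage markers 0 rose and 0 fell: Ptprc, Cd68 and Itgam were below the median level, and Csf1r (0.14), Adgre1 (0.02) and Cd14 (-0.12) above it. Their sum, whose part in the result was not tested, was 2509 to 2641 with GFP and 2444 to 3055 with PGC-1α. Of 16 interferon response genes 0 rose (against 6.93% of all genes) and 1 fell (6.25%, against 12%). The fall was Ifit2 (-0.76), and on the spike-in scale 0 of the list fell.

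**Figure D3:**
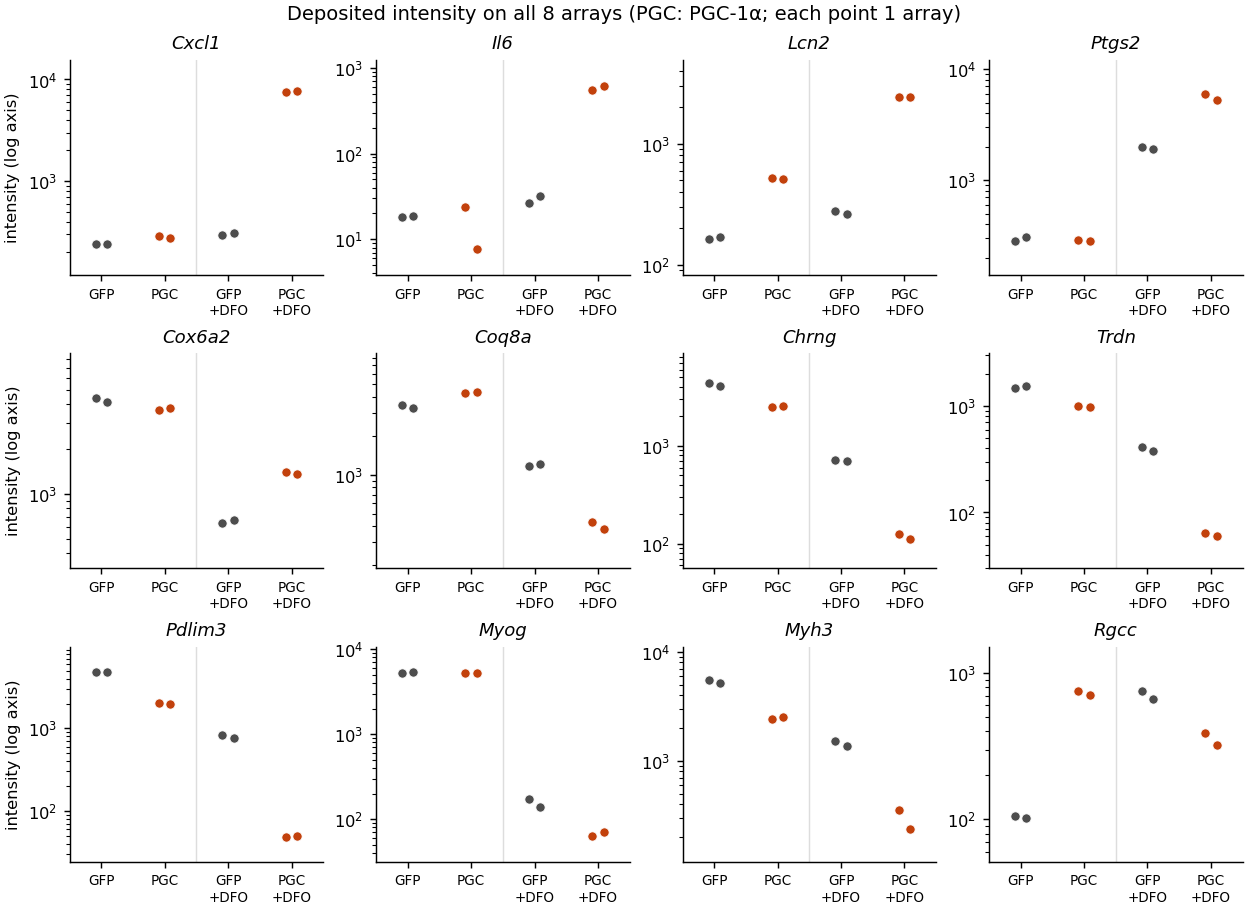
Deposited intensity (log axis) of 12 genes on all 8 arrays, 1 point an array, for GFP and PGC-1α without DFO (left of the line in each panel) and with DFO (right). Cxcl1 and Ptgs2 rise with PGC-1α on the DFO side alone. Coq8a and Rgcc are lower with PGC-1α under DFO and higher without it, the change of Coq8a without DFO not being called. Myog lies at 5223 and 5330.2 with GFP alone and 174 and 141 with GFP and DFO.

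Promoters of the inflammatory list were searched for a 9-letter kappaB-type pattern, GGNNNTTCC on either strand, chosen after seeing these genes. It was in 10 of the 15 members with a window (66.7%), and in 5 of the 7 that rose, against 23.3% of all tested genes with a window. The 120 bases before the starts of Cxcl1 (chr5:90891125-90891244, plus strand) and Il6 (chr5:30012994-30013113, plus strand) are printed with the matches in capitals, as a chemokine and a cytokine gene that rose. The later Cxcl1 match begins 70 bases before the start and reads on both strands; the Il6 match begins 43 bases before it. Cxcl5 has no window in the table.
Cxcl1: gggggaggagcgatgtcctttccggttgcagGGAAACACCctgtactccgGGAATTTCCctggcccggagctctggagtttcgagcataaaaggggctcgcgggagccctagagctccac
Il6: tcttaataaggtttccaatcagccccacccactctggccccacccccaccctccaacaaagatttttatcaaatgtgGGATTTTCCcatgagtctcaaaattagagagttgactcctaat

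Stress and redox genes were mixed. Cytosolic heat shock genes fell in 9 of 16 cases and rose in 0, although the median of -0.46 became 0.04 on the spike-in scale, where 5 falls passed; the falls were 5 and 6 without GFP replicates 1 and 2 in turn. Hspa1b, an inducible HSP70, went from 3833 and 3758 to 1747 and 1648 (-1.16 ± 0.09), and the muscle small heat shock genes Hspb2 and Hspb3 fell by 1.32 and 2.29. Sod2, the superoxide dismutase of mitochondria, went from 1155 and 1194 to 6670.3 and 6759 (2.52 ± 0.08, adjusted p = 0.000302), with rises in the mitochondrial Txn2 (1.18) and Prdx3 (0.93). Nqo1, a cytosolic quinone reductase, fell by 2.37 (adjusted p = 0.00764; 0.0613 and 0.056 without either GFP array), and Gsr, which recycles glutathione, fell by 1.16. Over the 22 antioxidant genes 5 rose and 5 fell, and without GFP replicates 1 and 2 in turn 3 and 4 rose and 2 and 3 fell.

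In amino acid metabolism 6 of 19 branched chain breakdown genes rose and 2 fell, while on the spike-in scale 8 rose and 0 fell. Bcat1, the cytosolic branched chain transaminase, went from 389.5 and 395 to 1615 and 1549.6 (2.01 ± 0.09, adjusted p = 0.000776). Of 27 genes of ATF4, the amino acid stress factor, and serine synthesis 7 rose and 7 fell, the falls including the serine synthesis gene Psat1 (-0.79) and the rises the stress gene Ddit3 (1.02). On the spike-in scale 0 falls of this list passed, and without GFP replicates 1 and 2 in turn 1 and 2 rose and 1 and 1 fell. Cholesterol synthesis had 4 falls of 16, none of which passed on the spike-in scale or without either GFP array.

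Collagen and matrix genes fell in 10 of 27 cases, with a median of -0.22 that turned to 0.28 on the spike-in scale, where 2 falls passed; without GFP replicates 1 and 2 in turn 2 and 2 passed, and 3 to 6 without any other array but PGC-1α replicate 1 with DFO. Postn, periostin, went from 533 and 474 to 183 and 176 (-1.49 ± 0.10, adjusted p = 0.00132), and the crosslinking enzyme gene Loxl1 fell by 1.28. In the cell cycle list 3 of 28 rose and 6 fell (1 and 1 falls without GFP replicates 1 and 2 in turn). These rises were 10.7% of the list and the falls 21.4%, against 6.93% and 12% of all genes. Rrm2, the iron-containing subunit of ribonucleotide reductase, went from 519 and 489 to 3102 and 2905 (2.57 ± 0.09, adjusted p = 0.000524), and its partner Rrm1 rose by 1.17. Mcm6, part of the replication helicase, went from 781 and 840.1 to 164 and 123 (-2.51 ± 0.15), and Cdkn1a, the p21 inhibitor, read 5949 and 6167 with GFP and 6208 and 6168 with PGC-1α (0.03 ± 0.08, adjusted p = 0.838). p53 target genes had 0 rises and 5 falls of 15, among them Pmaip1, which promotes cell death (-1.05); 1 and 2 passed without GFP replicates 1 and 2 in turn. Iron-dependent demethylase genes had 0 rises and 6 falls of 22, of which none passed on the spike-in scale or without either GFP array.

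The comparison without DFO, which shares no array with this one, called 902 rises (4.96%) and 868 falls (4.77%). Of the 1260 rises under DFO 621 also rose without it (49.3% of the first and 68.8% of the second), and of the 2186 falls 538 also fell (24.6% and 62.0%); 22 genes were called in opposite directions. Across the 9096 genes above the median level the changes correlated at 0.715, given as a description since genes are not independent. Energy genes were mostly shared: 27 of 34 complex I genes and 15 of 19 TCA cycle genes rose in both. Complex I changes were larger under DFO in 32 of 34 genes (median 0.99 against 0.66), as were 8883 of all 18193 genes. Yet 0 complex I genes passed the test of the difference. Such counts depend on the scale, since the spike-in scale adds 0.50 to changes under DFO and 0.21 to those without. Muscle falls were fewer without DFO, 10 of 27, of which 8 were shared.

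The difference itself, the interaction, passed for 101 genes, 42 higher under DFO (0.231%) and 59 lower (0.324%). Before adjustment 3165 genes had p below 0.05. The 59 included the muscle genes Pdlim3, Trdn, Chrng, Cacng1 and Casq2. Pdlim3 went from 4802 and 4884 to 2049.7 and 1958 without DFO (-1.27), against -4.04 with it (interaction -2.77 ± 0.12, adjusted p = 0.00937). Trdn (-0.62 against -2.68) and Chrng (-0.74 against -2.58) did likewise (interaction adjusted p = 0.0235 and 0.0251). Rgcc, a cell cycle regulator, rose without DFO from 105 and 103 to 755 and 711 and fell under it from 749.7 and 666 to 388 and 322 (interaction -3.82 ± 0.18, adjusted p = 0.0104); the fall was not called without GFP replicate 1 (adjusted p = 0.0595). Cox6a2, a muscle cytochrome oxidase gene, stood at 4357 and 4106 with GFP and 3662 and 3785 with PGC-1α without DFO, and at 635 and 669.5 against 1399.9 and 1353 under it. Slc7a2, an arginine transporter, rose by 1.81 under DFO and changed by -0.78 without it.

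**Figure D4:**
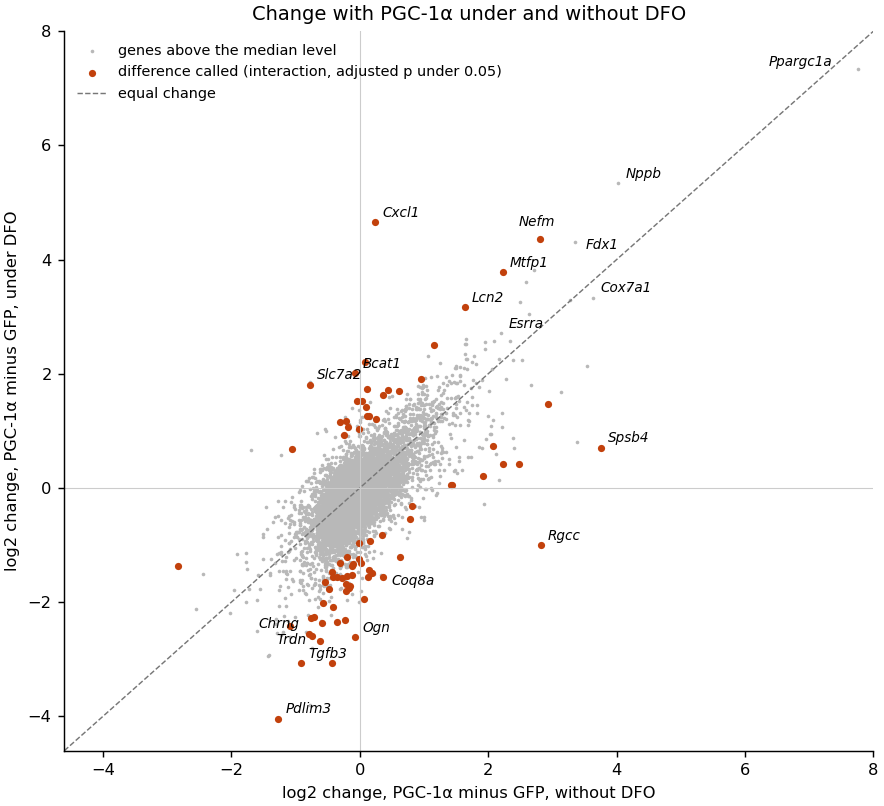
Log2 change with PGC-1α under DFO (vertical) against that without DFO (horizontal) for the 9096 genes above the median level; orange points passed the test of the difference at adjusted p 0.05, and the dashed line marks equal change. Nppb, Fdx1 and Cox7a1 are among the grey points at the upper right, Cxcl1 lies far above the line at 4.65 against 0.23, and Pdlim3 (-4.04 against -1.27) and Rgcc (-1.0 against 2.82) below it.

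The interaction count depends strongly on scale and arrays. It was 4 on the poly-A spike-in scale, 3 with the replicate number as a block and between 0 and 77 when 1 array was left out, the 0 being without GFP replicate 1 with DFO. The 4 genes on the spike-in scale, named after seeing them, were Cxcl1 (4.71), Rgcc (-3.53), Sprr2d (6.12) and 9130019P16Rik.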

How the data were processed

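RNA from 8 C2C12 cultures was hybridised to Affymetrix Mouse 430 2.0 arrays, per the labels. The authors deposited 1 linear intensity per probe set and array; their background correction, normalisation and summarisation are not given in the sources used here. Intensities were taken to log2, with no pseudocount. Of 45101 probe sets 34945 carry 1 gene symbol in GEO's platform annotation, 932 several, 9160 none and 64 are controls. Each of 18193 genes was represented by its probe set with the highest mean log2 over all 8 arrays, and the other probe sets were left out except in an alternative. Groups came from the sample titles, with 2 arrays in each of 4 groups. Their number limits the precision of every value.

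limma 3.58.1 (R 4.3.3) fitted 1 mean per group over all 8 arrays, with moderated tests (4 residual and 1.3 prior degrees of freedom) and Benjamini-Hochberg adjustment over 18193 genes; the procedure was tested on simulated data. The members and the 41 gene lists were chosen with earlier results of these data known. Named genes are the 10 largest rises and falls above the median level, under DFO and also without it, and the 8 largest interactions on each side. Predicted transcripts were passed over in these rankings. Up to 3 members per list with the largest change under DFO and a set of standing genes were added, 164 in all. Other list members and markers are named after their values were seen. Replicate numbers share only a number: the deviations of same-numbered arrays correlated between -0.11 and 0.22. Alternatives were quantile, median and spike-in scaling, other probe set rules, filters, other variance models, a replicate block and leaving out each array. Spike-in scaling without Trp and scaling to hybridization controls were added after seeing the data.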

Additional observations from a re-analysis of the deposited data

Results flagged for a closer look

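For 30 of the genes named by rule, the log2 change with PGC-1α differed with and without DFO by limma's interaction test (adjusted p threshold 0.05 over 18193 genes). Some of these genes were named because they passed this test, so their number adds no support. Over all genes 42 passed as higher under DFO (0.231%) and 59 as lower (0.324%), and on the poly-A spike-in scale 4 passed. The value beside each gene is its difference between the 2 changes. It was positive for the inflammatory genes Saa3 (6.95; 5.47 with DFO and -1.48 without, adjusted p = 0.04998), Cxcl5 (4.97; 4.92 with DFO and -0.05 without), Cxcl1 (4.42; 4.65 with DFO and 0.23 without), Ptgs2 (1.57; 1.53 with DFO and -0.04 without) and Lcn2 (1.54; 3.17 with DFO and 1.64 without). It was also positive for the amino acid genes Slc7a2 (2.58; 1.81 with DFO and -0.78 without) and Bcat1 (2.08; 2.01 with DFO and -0.07 without), an arginine transporter and a transaminase, and for the mitochondrial genes Mtfp1 (1.56; 3.79 with DFO and 2.23 without) and Cox6a2 (1.26; 1.08 with DFO and -0.18 without). Positive differences were further found for Adamts4 (2.12), Enpep (1.74), Myl2 (1.61), Nefm (1.56), Setd5 (1.46), Slc11a2 (1.39) and Pfkfb4 (1.26).

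Negative differences were found for the muscle genes Pdlim3 (-2.77; -4.04 with DFO and -1.27 without), Trdn (-2.05; -2.68 with DFO and -0.62 without), Chrng (-1.84; -2.58 with DFO and -0.74 without), Cacng1 (-1.44; -2.01 with DFO and -0.57 without) and Casq2 (-1.09; -1.64 with DFO and -0.55 without). They were also found for the matrix and signalling genes Ogn (-2.54; -2.61 with DFO and -0.07 without), Postn (-1.68; -1.49 with DFO and 0.20 without) and Tgfb3 (-2.16; -3.07 with DFO and -0.91 without). Coq8a (-1.92; -1.56 with DFO and 0.36 without) and Rgcc (-3.82; -1.0 with DFO and 2.82 without) were lower with PGC-1α under DFO and higher without it. The change of Coq8a without DFO was not called. The remaining negative differences were those of Spsb4 (-3.05), Tmem182 (-2.63), Nr2f1 (-2.09) and Ndrg2 (-2.06).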

How the results depend on the processing

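Of the 157 named genes called under DFO, 18 lost their call but not their direction on the poly-A spike-in scale, 22 on that scale without Trp, 22 with probe sets averaged (2, 5 and 3 more turned in direction, as given at the end), 39 when the groups compared were fitted alone, 36 and 30 without GFP replicate 1 or 2 with DFO, and 5 with the replicate block. The count of calls under DFO, 3446, was 2213 with probe sets averaged, 861 with the groups compared fitted alone, 1060 at 2-fold or more, 2685 with the replicate block, and 873 to 3431 with 1 array left out.

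Without DFO the count of 1770 became 880 on the poly-A spike-in scale, 508 on that scale without Trp, 940 with probe sets averaged, 3524 over genes above the median level, 3746 with trend and robust variance, 543 at 2-fold or more, 1060 with the replicate block and 304 to 2094 with 1 array left out. Fitting those 4 arrays alone with limma gave 0 calls, with 4531 at an unadjusted p under 0.05. The interaction count of 101 became 4 and 3 on the spike-in scales, 53 on the hybridization control scale, 216 after quantile scaling, 4 with probe sets averaged, 58 without shared probe sets, 1316 over genes above the median level, 448 with a floor, 1467 with trend and robust variance, 3 with the replicate block and 0 to 77 with 1 array left out; the 0 by limma had 2089 at an unadjusted p under 0.05. It cannot be fitted on the compared groups alone, since it uses all 4.

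Directions turned for Eno3 (0.10 and 0.22 on the spike-in scales with and without Trp), Fech (0.14 and 0.25), Fdft1 (0.038), Fdps (0.079) and Cyp51 (0.094, these 3 without Trp), for Nmd3 (0.09), Becn1 (0.11) and Fdps (0.29) with probe sets averaged, and for Ager (0.24) and Reep1 (0.55) without shared probe sets; the cause was not tested. Probe sets near background, where a log ratio is least certain, limit the dim genes.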

Other observations

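Fatty acid uptake and storage genes rose in 4 of 17 cases (23.5%, against 6.93% of all genes) and fell in 1 (5.88%, against 12%). Pnpla2, the lipase that opens stored triglyceride, went from 288 and 340.4 to 939.5 and 846 (1.51 ± 0.17, limma adjusted p = 0.00476). Dgat1, which makes triglyceride, went from 265 and 263 to 795 and 680.0 (1.48 ± 0.11), and Fabp3, the fatty acid carrier of heart and slow muscle, from 784 and 805 to 1888 and 1980.3 (1.28 ± 0.09). In all 3 the PGC-1α arrays were the higher ones, and the changes were 1.67, 1.08 and 1.48 without DFO.

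Among creatine kinases and muscle secreted factors 8 of 17 rose and 4 fell, with 1 fall left without GFP replicate 1 or 2. Ckmt2, the creatine kinase of muscle mitochondria, went from 81.5 and 97.5 to 243 and 253 (1.48 ± 0.12), whereas the cytosolic muscle form Ckm fell by 1.22. Lif, a cytokine of the interleukin-6 family, went from 164 and 168.8 to 686 and 624 (1.97 ± 0.21, limma adjusted p = 0.00461) and changed by -0.17 without DFO. Il15, another muscle cytokine, went from 115 and 109.8 to 57.8 and 61.0 (-0.92 ± 0.12, limma adjusted p = 0.00698), a call lost without either GFP array with DFO (adjusted p up to 0.0627).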
